A study of Mus musculus with 30 samples.

Results

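Transcript levels were measured in 10 intact mouse blastocysts, 10 of the 30 blastocysts in the study, each on its own array. They were chosen by their titles, which name KSOM(aa) alone as the culture. All came from B6C3F1 × CD1 matings after a stimulated cycle, were collected from the oviduct as zygotes fertilised in vivo, and grew undivided, 1 per well of a 96-well plate, in KSOM(aa), a potassium-enriched medium for mouse embryos that includes amino acids. Each was lysed whole, at an age of 4 dpc and Theiler stage 5, with 96 h of culture behind it and about 80 cells. The other 20 blastocysts were monozygotic twins of the same cross, age and stage, grown from the separated blastomeres of 10 2-cell embryos, with about 40 to 50 cells each. From every embryo 1 twin was cultured in GM501 and its sister in SAGE 1-Step, both of them media for human embryos. Intact blastocysts therefore differed from the twins in bisection, in medium and in cell number together, and these cannot be told apart.

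A mouse blastocyst of this age is a hollow ball. Its outer epithelium, the trophectoderm, carries keratins, tight junctions and the transcription factor Cdx2, pumps fluid into the cavity and later gives rise to the placenta. The inner cell mass splits into the epiblast, which carries Pou5f1 and Nanog and forms the embryo, and the primitive endoderm, which carries Gata6 and lays down a laminin-rich basement membrane on its way to the yolk sac. An array of a whole blastocyst sums all 3 tissues. Fewer cells of a type and less RNA per cell therefore cannot be told apart in any value given here.

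The 10 intact arrays were alike. The median log2 signal over all 65956 transcript clusters was 4.64 ± 0.029 (SD, n = 10), between 4.59 and 4.69, against 4.88 ± 0.238 in GM501 twins and 4.89 ± 0.225 in SAGE twins (SD, n = 10 each). Pearson's r between 2 intact arrays across clusters ran from 0.977 to 0.985. No component dominated their differences, with 16.3% of the variance on the first principal component and 15.1% on the second. Of 30142 genes, the 18091 in the upper 60% by mean over all 30 arrays, with a mean of at least 4.8, were kept for tests.

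Most genes of the blastocyst tissues passed the level kept, which 60% of all genes pass by definition. Genes of oviduct and cumulus cells passed at about that share, and fewer of those of blood, immune and sperm cells did. Of 19 measured trophectoderm genes 18 were kept, as were all 20 of the epiblast and inner cell mass and 18 of 19 of the primitive endoderm. The genes that fell short were Hand1 at 3.44 ± 0.0893, a factor of later trophoblast giant cells, and Sox17 at 4.58 ± 0.312, a factor of the endoderm (log2 signal, SD, n = 10). Of 11 genes of oviduct and cumulus cells 5 lay below the level kept, as did 4 of 6 of blood and immune cells and 6 of 7 of sperm. The highest signals among them were those of Msx2 at 6.39 ± 0.431, Cd68 at 6.39 ± 0.516 and the protamine gene Prm2 at 4.93 ± 0.203 (SD, n = 10). Summed as a list mean, the 6 kept oviduct and cumulus genes lay between 5.04 and 5.50 over the 10 blastocysts. Gata3, a further trophectoderm factor, stood on a cluster with several symbols and is not analysed here.

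The brightest transcripts were those of general cell maintenance, with 2 embryo genes among them. Signals of different clusters rest on different probes, so their order is an order of brightness and not of molecules. Dppa5a, an RNA-binding protein of pluripotent cells, lay at 18.70 ± 0.0694, with every blastocyst between 18.59 and 18.81. The mitochondrial 12S ribosomal RNA mt-Rnr1 lay at 18.53 ± 0.115 and COX1, a cytochrome c oxidase subunit, at 18.49 ± 0.114. The other embryo gene was Krt18, a simple-epithelium keratin of the trophectoderm, at 18.05 ± 0.0538. Lgals1, which encodes galectin-1, reached 17.98 ± 0.138 and the elongation factor gene Eef1a1 17.97 ± 0.0938 (all SD, n = 10). The ribosomal proteins Rpl4 and Rpl37a, the nucleolar protein Npm1, the lysosomal protein Psap, the autophagy genes Gabarapl2 and Calcoco2, Tomm7 of the mitochondrial import pore and Atp5md of ATP synthase followed, at means from 17.23 to 17.82.

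The remaining 6 of the 20 brightest rested on a cluster whose ID names another chromosome than that of the gene, so their signal is not shown to be their own. Hspa8, a constitutive heat shock chaperone of chromosome 9, was listed at 19.09 on a cluster of chromosome 14. Rpl41, of chromosome 10, was listed at 18.74 on a cluster of chromosome 14, and its cluster on chromosome 10 lay at 12.91 ± 0.152 (SD, n = 10). For Rpl35, Rpl27 and the spliceosome gene Snrpg the listed means were 17.71, 17.40 and 17.19, and those of the clusters on their own chromosomes 15.92, 11.01 and 7.83. Hnrnpa3, an RNA-binding protein of chromosome 2, was listed at 18.06 on a cluster of chromosome 3. Averaging all clusters of a gene kept 16 of the 20, and clusters on the gene's own chromosome alone, an alternative chosen after seeing the data, kept 14. Over all kept genes with a printable name 0.335% rested on a cluster of another chromosome, and none of the kept trophectoderm, inner cell mass, primitive endoderm or mitosis genes and none of the 20 of largest SD did. Of the 100 brightest genes of any kind, 86 were pseudogenes, predicted genes or small RNAs, which can share sequence with abundant transcripts, so their own levels are uncertain.

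Bright genes had small SDs. The median SD of the 100 brightest was 0.073 log2 units, against 0.253 over all kept genes. These genes lie at 17.56 or more, at the upper end of the scale, and whether the arrays resolve differences there was not tested, which holds for Krt18 too. The smallest spreads in the top 10% by mean belonged to Atp5g3, an ATP synthase subunit at 13.54 ± 0.0409, and Rps7, a small-subunit ribosomal protein at 14.66 ± 0.0455 (SD, n = 10). Rpl4, Tomm7 and Krt18 were in that group of 8 as well, and so were the listed values of Rpl41, Rpl35 and Hnrnpa3, with the limit given above. Among the 34 ribosomal protein genes measured the median SD was 0.105, and it was 0.103 among the 27 of them on a cluster of their own chromosome. None of these 27 exceeded 0.537, the 90th percentile of all kept genes. Of the other 7 the value listed for Rpl31 did, at 8.98 ± 0.584, on a cluster of chromosome 7 where the gene lies on chromosome 1. None of the 6 mitochondrial, 14 translation and cytoskeleton or 11 heat shock genes exceeded it.

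The 5 lineage markers were present in every blastocyst and differed in how much they varied. Cdx2, the trophectoderm factor, read 11.90, 11.62, 11.88, 11.66, 11.50, 11.73, 11.88, 11.86, 11.77 and 11.96 in blastocysts 1 to 10. Krt18 stayed between 17.96 and 18.10. Pou5f1, the Oct4 gene of the inner cell mass, read 10.03, 9.69, 9.93, 9.59, 9.51, 9.98, 9.89, 9.32, 9.66 and 10.09, with blastocyst 8 lowest. Nanog, a factor of the naive epiblast, was the widest of the 5, at 15.17, 13.63, 14.91, 12.74, 14.02, 14.96, 13.67, 13.79, 13.67 and 13.31. Blastocysts 1, 3 and 6 stood at the top and blastocyst 4 at the bottom. Gata6, the early factor of the primitive endoderm, read 12.23, 11.62, 12.05, 11.98, 11.98, 11.27, 12.20, 11.91, 12.10 and 12.07, with blastocyst 6 lowest. The SDs were 0.147 for Cdx2, 0.0538 for Krt18, 0.253 for Pou5f1, 0.787 for Nanog and 0.291 for Gata6 (n = 10).

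**Figure D1:**
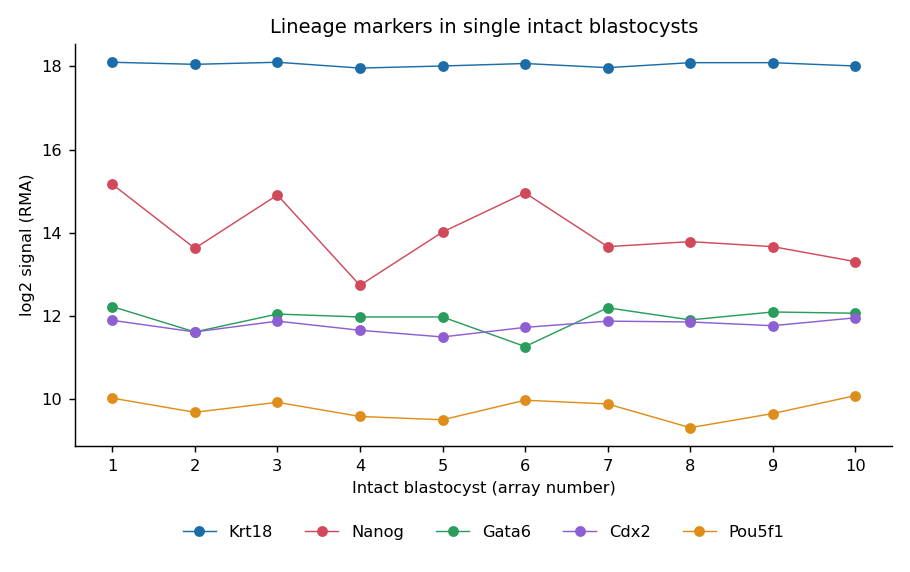
Log2 signal (vertical axis) of Krt18, Nanog, Gata6, Cdx2 and Pou5f1 in intact blastocysts 1 to 10 (horizontal axis), 1 point per array; the lines only join the points of a gene. Krt18 stays between 17.96 and 18.10, while Nanog runs from 12.74 to 15.17.

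Across the lineages, inner cell mass and primitive endoderm genes varied more between blastocysts than trophectoderm genes. The median SD of kept members was 0.224 in the trophectoderm list, 0.430 in the epiblast and inner cell mass list and 0.449 in the primitive endoderm list. An SD above 0.537 was reached by 2 of 18, 5 of 20 and 8 of 18 of their members, where the threshold leaves 10% of all kept genes; the lists differ in brightness, and their difference was not tested. Trophectoderm structure was steady, with the keratin Krt8 at 16.78 ± 0.161 and the tetraspanin Tspan8 at 16.37 ± 0.147. Its variable members were Krt19, a keratin at 5.10 to 8.66, Elf5, a trophoblast stem cell factor at 8.34 to 10.68, and Plac1 at 6.93 to 8.49. Krt19 was high, at 7.41 to 8.66, in blastocysts 4, 7, 8 and 9 and at most 5.86 in the others.

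The brightest inner cell mass genes besides Nanog were Tfcp2l1 at 13.48 ± 0.432 and Zfp42 (Rex1) at 11.98 ± 0.350, both of naive pluripotent cells (SD, n = 10). Tdgf1, the Nodal co-receptor Cripto, ran from 9.98 to 13.28, with a median of 11.40 and blastocyst 1 at the top. Prdm14, a repressor that guards pluripotency, read 7.33 in blastocyst 1, 7.38 in blastocyst 3 and 4.70 to 6.18 in the others. Fgf4, the epiblast signal that directs cells to the primitive endoderm, was dim at 5.22 ± 0.616, and Sox2 lay at 7.49 ± 0.612 (SD, n = 10). Dusp6, a phosphatase induced by FGF signalling and the brightest gene of the signal list, lay at 14.37 in blastocysts 4 and 9 and between 11.83 and 12.97 in the others.

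Among primitive endoderm genes the brightest were the endocytic receptor Lrp2 (megalin) at 14.02 ± 0.418, its adaptor Dab2 at 13.35 ± 0.361 and the receptor Cubn (cubilin) at 12.80 ± 1.854 (SD, n = 10). Cubn read 9.67, 13.87, 13.20, 13.59, 14.17, 14.87, 12.17, 10.19, 14.82 and 11.47 in blastocysts 1 to 10. Blastocysts 1 and 8 were thus lowest and blastocysts 6 and 9 highest. Srgn, the proteoglycan serglycin, ran from 7.33 in blastocyst 1 to 11.50 in blastocyst 5. The mean of the 18 kept members was 8.08 in blastocyst 1, 8.63 in blastocyst 8 and 8.96 to 9.49 in the other 8.

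The 3 chains of laminin-111, the first laminin of the embryo, rose and fell nearly in parallel. Lama1, the alpha chain gene (chr17:67697127-67822645, GRCm38.p6), read 9.82, 12.73, 11.85, 11.86, 11.39, 12.18, 11.68, 11.04, 12.43 and 12.15. Lamb1, the beta chain gene (chr12:31265146-31329644), read 10.49, 12.68, 12.04, 12.06, 11.74, 12.31, 11.97, 11.12, 12.52 and 12.19. Lamc1, the gamma chain gene (chr1:153218922-153332786), read 10.19, 12.26, 11.82, 11.64, 11.71, 11.93, 11.65, 10.93, 12.55 and 11.98. Blastocyst 1 was lowest and blastocyst 8 next in all 3 genes, and blastocysts 2 and 9 were highest. The genes lie on 3 chromosomes. Sparc, a basement membrane glycoprotein, was also lowest in blastocyst 1, at 10.56 against 11.71 to 12.63 in the others.

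**Figure D2:**
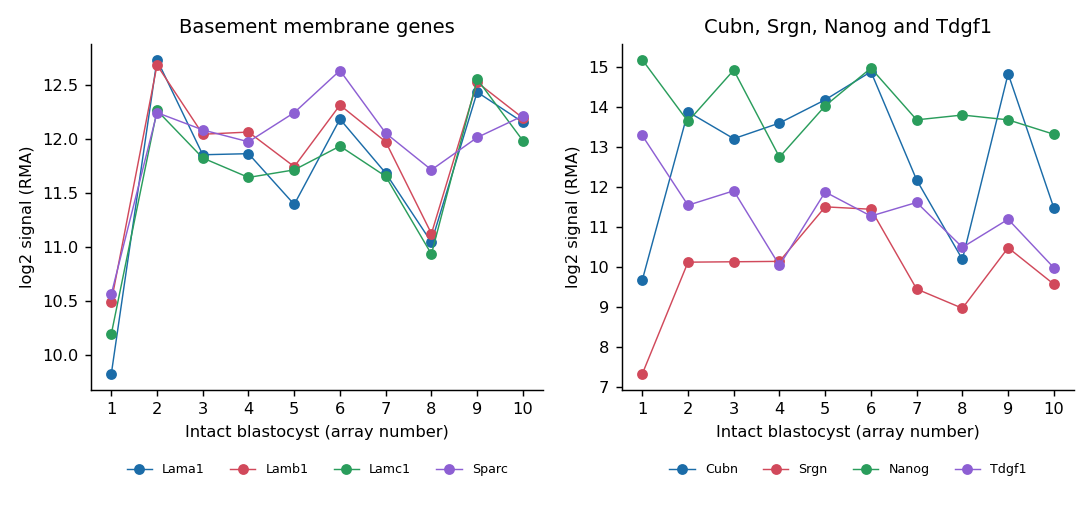
Log2 signal (vertical axes) in intact blastocysts 1 to 10 (horizontal axes) of Lama1, Lamb1, Lamc1 and Sparc on the left and of Cubn, Srgn, Nanog and Tdgf1 on the right; lines only join the points of a gene. Lama1, Lamb1 and Lamc1 share their low values in blastocysts 1 and 8 and their high values in blastocysts 2 and 9, while Nanog and Tdgf1 are highest in blastocyst 1.

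Correlations between the 5 markers asked whether blastocysts richer in one lineage were poorer in another. None of the 10 pairs passed a two-sided permutation test of r with 100000 resamples after Benjamini-Hochberg adjustment (n = 10). The closest was Krt18 with Nanog at r = 0.702 (p = 0.0263, adjusted p = 0.263 by the permutation test) and rho = 0.709 (p = 0.0257, adjusted p = 0.143), where r was 0.560 without the 2 blastocysts farthest from the median of Krt18. Cdx2 with Pou5f1, a trophectoderm and an inner cell mass factor, gave r = 0.535 (permutation p = 0.113, adjusted p = 0.564) and rho = 0.669 (permutation p = 0.0401, adjusted p = 0.143), and r = 0.414 without the 2 farthest. Without blastocyst 8, which had the lowest Pou5f1, that r was 0.862 and its adjusted p in the exact permutation test was 0.0448. With any other single blastocyst left out r was 0.421 to 0.597, with adjusted p of 0.377 or more in the same test. The adjustment covers the 10 pairs and not the choice of the blastocyst left out, so the value without blastocyst 8 is not a call. Pou5f1 with Nanog gave r = 0.431 (permutation p = 0.212, adjusted p = 0.587) and rho = 0.225 (permutation p = 0.531, adjusted p = 0.793), and r = 0.767 without the 2 farthest (p = 0.0373 by the exact permutation test, unadjusted). Cdx2 with Gata6 gave r = 0.416 (permutation p = 0.235, adjusted p = 0.587) and rho = 0.659 (permutation p = 0.0429, adjusted p = 0.143), and r = 0.494 without the 2 farthest. Nanog with Gata6, which mark the alternative fates of the inner cell mass, gave r = -0.173 (permutation p = 0.659, adjusted p = 0.901) and rho = 0.061 (permutation p = 0.868, adjusted p = 0.868). The other 5 pairs had r between -0.137 and 0.273. No opposition of trophectoderm and inner cell mass markers was detectable among these 5 genes with 10 blastocysts. Cdx2 and Krt18 had SDs of 0.147 and 0.0538, below the median of 0.253 over all kept genes. The wider trophectoderm list is set against Pou5f1 and Nanog below.

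Pairs among all 56 kept lineage genes were then tested, a family of 1540 permutation tests added after the data were seen. At an unadjusted p under 0.05 there were 184 pairs (11.9%), where 77 would be expected at that level. The pairs share members and arrays, so this count is a description. High values of r were most frequent among primitive endoderm genes, as given below. After adjustment 5 pairs were called with positive r, 0.325% of those tested, and 0 with negative r. Lama1 and Lamb1 had r = 0.988 and rho = 1.0, with the smallest p the permutations can give, 1e-05, in both tests (adjusted p = 0.0154 for each). Lamb1 and Lamc1 had r = 0.973 and Lama1 and Lamc1 r = 0.961 (both adjusted p = 0.0257 by permutation), each with rho = 0.891 (permutation p = 0.00109, adjusted p = 0.174). Without the 2 blastocysts farthest from the median of the first gene, these 3 values of r were 0.972, 0.849 and 0.911. The correlations rest in part on blastocyst 1: without it only Lama1 with Lamb1 was still called (r = 0.975, adjusted p = 0.00424 by the exact permutation test), while Lama1 with Lamc1 and Lamb1 with Lamc1 had r = 0.90 and 0.936 (both adjusted p = 0.338 by the exact test).

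The other called pairs joined Cubn with Srgn (r = 0.903, adjusted p = 0.0289, and rho = 0.915, adjusted p = 0.140, both by permutation) and Krt8 with Dppa1 (r = 0.919, adjusted p = 0.0354, and rho = 0.939, adjusted p = 0.108). Without the 2 farthest blastocysts r was 0.802 and 0.852. Without blastocyst 1 neither was called (r = 0.860 and 0.872, both adjusted p = 0.338 by the exact permutation test). Krt8 read 17.05, 16.68, 16.95, 16.57, 16.60, 16.66, 16.71, 16.79, 16.94 and 16.81. Dppa1, a gene of the early embryo listed with the trophectoderm, read 15.41, 14.33, 14.95, 14.18, 14.32, 14.70, 14.76, 14.84, 14.96 and 14.71. Both were highest in blastocyst 1 and lowest in blastocyst 4. Amn, the partner that carries cubilin to the membrane, followed Cubn with r = 0.911 (permutation p = 0.000325) but missed the adjusted threshold at 0.0715.

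Promoters of the partners in 2 of the 5 called pairs are printed because these genes moved together, as RefSeq gives them on GRCm38.p6. They are the 250 bases before the start of the gene, 5′ to 3′ on the strand of the gene, with matches on either strand to a GATA factor motif or a Pou5f1 octamer motif in capitals. The GATA motif was searched as GATAA. For the octamer motif the letters searched were ATGCAAA. Of 27025 promoters of that length 23.0% held the GATA motif and 4.06% the octamer motif, and the letters of these motifs do not overlap. The partners Krt8 (chr15:102004343-102004592, minus strand) and Dppa1 (chr11:46629275-46629524, minus strand) each held 1 GATA motif. The partners Cubn (chr2:13491877-13492126, minus strand) and Srgn (chr10:62527446-62527695, minus strand) held neither motif in these windows. Promoters of Lama1, Lamb1 and Lamc1 are not printed. The Lamb1 window in the table overlaps the gene interval given above.
Krt8: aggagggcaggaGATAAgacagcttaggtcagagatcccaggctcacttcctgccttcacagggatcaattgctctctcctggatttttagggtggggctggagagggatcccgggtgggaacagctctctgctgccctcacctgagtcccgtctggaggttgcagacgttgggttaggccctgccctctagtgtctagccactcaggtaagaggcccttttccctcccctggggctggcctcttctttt
Dppa1: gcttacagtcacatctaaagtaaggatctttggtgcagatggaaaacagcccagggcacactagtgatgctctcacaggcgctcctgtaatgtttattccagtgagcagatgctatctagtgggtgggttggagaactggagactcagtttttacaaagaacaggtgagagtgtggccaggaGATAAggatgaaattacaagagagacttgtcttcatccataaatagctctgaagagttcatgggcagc
Cubn: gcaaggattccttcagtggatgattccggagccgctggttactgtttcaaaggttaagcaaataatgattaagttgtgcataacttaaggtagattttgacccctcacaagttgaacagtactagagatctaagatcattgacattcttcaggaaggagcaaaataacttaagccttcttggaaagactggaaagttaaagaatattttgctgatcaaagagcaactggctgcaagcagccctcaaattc
Srgn: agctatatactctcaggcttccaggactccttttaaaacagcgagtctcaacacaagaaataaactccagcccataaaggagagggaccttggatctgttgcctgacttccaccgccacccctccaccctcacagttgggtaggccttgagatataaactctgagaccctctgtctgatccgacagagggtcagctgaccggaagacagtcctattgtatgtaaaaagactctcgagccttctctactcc
Of the promoters of kept lineage genes in the table, 4 of 15 of trophectoderm genes, 1 of 15 of inner cell mass genes and 2 of 12 of primitive endoderm genes, Lamb1 among the 12, held the GATA motif. The octamer motif stood in 2, 3 and 0 of them. The windows of several of these genes besides Lamb1 overlap the gene interval or lie inside it. Among them are Tspan8, with 1 of the trophectoderm octamer matches, and Hnf4a, with 1 of the primitive endoderm GATA matches. These counts are therefore not all of bases before the start of a gene, unlike the 4 windows printed above. A match is a description of the letters only.

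The same 5 pairs were looked at in the twins, whose values had no part in the choice. In array median, twins of pairs 1 to 6 lay between 4.81 and 5.28 and those of pairs 7 to 10 between 4.57 and 4.67, apart from the SAGE twin of pair 8 at 5.12, so r was taken over pairs 1 to 6 in each medium (n = 6, exact permutation test, 10 tests adjusted together), and none passed. In SAGE twins r was 0.699 for Lama1 with Lamb1 (p = 0.131, exact permutation), 0.829 for Lama1 with Lamc1 (p = 0.0444, adjusted p = 0.222, exact permutation) and 0.377 for Lamb1 with Lamc1 (p = 0.540, exact permutation). The values of rho were 0.771, 0.886 and 0.429 (exact permutation p = 0.103, 0.0333 and 0.419), and without the 2 twins farthest from the median of the first gene r was 0.873, 0.752 and 0.171. In GM501 twins the same pairs gave r of -0.208, 0.081 and 0.767 (exact permutation p = 0.689, 0.856 and 0.0708) and rho of 0.029, -0.086 and 0.943 (exact permutation p = 1.0, 0.919 and 0.0167, the last with an adjusted p of 0.167). Without the 2 farthest of these 6 GM501 twins r was 0.953, 0.722 and 0.927. The values for Lama1 thus changed with the twins included, and so few twins neither show nor exclude a relation.

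Cubn with Srgn gave r = 0.957 in SAGE twins (p = 0.00833, adjusted p = 0.0833, exact permutation), rho = 0.771 (p = 0.103, exact permutation) and r = 0.793 without the 2 farthest. In GM501 twins r was 0.237 (p = 0.678, exact permutation) and -0.234 without the 2 farthest. Krt8 with Dppa1 gave 0.343 and -0.314 in GM501 and SAGE twins (exact permutation p = 0.468 and 0.544), and -0.623 and -0.019 without the 2 farthest. With 6 twins per medium these values neither show nor exclude a relation as close as in the intact blastocysts.

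Summed over classes of pairs, primitive endoderm genes had a median r of 0.516 with each other, against 0.004 over all 64962901 pairs of the 11399 kept genes with a printable name. Of 153 primitive endoderm pairs 20 (13.1%) had r of at least 0.8, where 0.339% of all pairs did. These pairs share members and arrays, so the count is a description. Lamc1 had r = 0.903 with the endoderm factor gene Gata4 and r = 0.912 with the epiblast gene Utf1 (both adjusted p = 0.137 by permutation). Without the 2 blastocysts farthest from the median of Gata4 and of Utf1 these were 0.552 and 0.532. Trophectoderm genes had a median r of 0.094 with each other, inner cell mass genes 0.141, and trophectoderm with inner cell mass genes -0.015. Between the last 2 lists 3 of 360 pairs (0.833%) had r of -0.8 or less, where 0.304% of all pairs did. They were Krt7 with the uridine phosphorylase gene Upp1 (-0.852), Krt8 with Nodal (-0.845) and Krt7 with the Nodal-family ligand Gdf3 (-0.830), with adjusted p of 0.303, 0.168 and 0.209 by permutation. Without the 2 farthest blastocysts they were 0.127, -0.774 and -0.441, so both relations of Krt7 rest on those blastocysts.

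Regression of all 18090 other kept genes on each marker called 0 genes for Cdx2, Krt18, Pou5f1, Nanog and Gata6 alike (0% of those tested in either direction; limma, adjusted p under 0.05). At an unadjusted p under 0.05 there were 1081 (5.98%) for Cdx2, 781 (4.32%) for Krt18 and 1334 (7.37%) for Pou5f1. For Nanog there were 1302 (7.2%) and for Gata6 1326 (7.33%). By chance alone a share of 0.05 would be expected at that level, so these counts lie near it. Trf, which encodes the iron carrier transferrin, came nearest, with r = -0.95 to Gata6 (limma adjusted p = 0.0732). Its slope passed when arrays were centred on their medians (adjusted p = 0.0144) and with limma's trended and robust variances (adjusted p = 0.0441). The 8 genes whose levels followed a marker most closely are named as likenesses only. With Cdx2 these were H2bc21 (a histone H2B, r = 0.92), Atl3, Pramel13 and Ulbp1 on the positive side and Zbtb44, Nr0b1, Dennd5b and Prex1 on the negative side, at sizes of r from 0.83 to 0.92. With Krt18 they were Mreg (0.95), Dapk1, Slco2a1 and Bex3, and Gtf3a, Stbd1, Ino80 and Eprn. With Pou5f1 they were the cohesin subunit Rad21 (0.96), the centromeric cohesin protector Sgo1 (0.91), Zc3h6 and Zfp760, and Pgap1, Lonrf1, Glipr1 and Slc6a14. With Nanog they were Tmem222 (0.92), Uap1l1, Cers6 and Tuba4a, and the phosphatase gene Dusp9 (-0.87), Fam220a, Ccn1 and Pitpnb. With Gata6 they were the amino acid transporter gene Slc3a1 (0.93), Baz1a, Ms4a10 and Bet1l, and Trf, Crebrf, Pglyrp1 and the Y-linked Usp9y, whose values fall into separate sets and get no r. The smallest adjusted p among these genes was 0.382 for Cdx2, 0.130 for Krt18, 0.246 for Pou5f1 and 0.499 for Nanog (limma).

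All 16 mitosis genes had positive r with Pou5f1, from 0.47 to 0.84 with a median of 0.66, against a median of 0.01 over all genes. At an unadjusted p under 0.05 were 11 of the 16 (68.8%), where 7.36% of all genes were, and 0 passed the adjusted threshold (smallest adjusted p = 0.394, limma). Mki67, the Ki-67 proliferation antigen, read 14.54, 13.60, 14.02, 13.23, 13.48, 13.80, 14.05, 13.08, 14.11 and 14.21 and had r = 0.84. Cenpe, a kinetochore motor, had r = 0.82, Birc5, which encodes survivin, 0.80, and Aurkb, a mitotic kinase and the most variable of the list at 8.05 to 10.04, 0.51. The 16 genes follow the cell cycle together and do not count as 16 separate observations.

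The mean of the mitosis list was 12.23 in blastocyst 1, 11.92 in blastocyst 9 and 11.03 in blastocyst 8, and 11 of the 16 genes were highest in blastocyst 1. All 16 kept a positive r with Pou5f1 when arrays were centred on their medians (median 0.62) and when blastocyst 1 was left out (median 0.60). Positive r was also found for all 16 with Cdx2 (median 0.51), Krt18 (0.31) and Nanog (0.53), and for 13 of 16 with Gata6 (0.24). Only some of the other combinations of list and marker are described here. Members of the p53 list had a median r of -0.47 with Pou5f1, with 4 of 13 positive, where 50.8% of all genes were. The primitive endoderm list had a median r of -0.43 with Gata6, its own early factor. Of its members 2 of 17 were positive, where 55.3% of all genes were. At an unadjusted p under 0.05 were 4 of 17 (23.5%, limma), where 7.32% of all genes were. Gata6 was highest in blastocyst 1 (12.23), where the mean of the primitive endoderm list was lowest (8.08). It was lowest in blastocyst 6 (11.27), where that mean was among the highest (9.48). Whether the negative median rests on these blastocysts was not tested. Trophectoderm genes had a median r of -0.37 with Nanog, with 7 of 18 positive, where 48.7% of all genes were. At an unadjusted p under 0.05 were 4 of 18 (22.2%, limma), where 7.2% of all genes were. These were Elf5 (-0.77), Tead4 (-0.66), Krt7 (-0.61) and, on the positive side, Dppa1 (0.66). With Pou5f1 8 of 18 were positive and the share was again 22.2%, against 7.36%. Those were Plac1 (-0.79), Lgals3 (-0.77), Elf5 (-0.64) and Krt7 (-0.61). None passed the adjusted threshold with either marker.

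**Figure D3:**
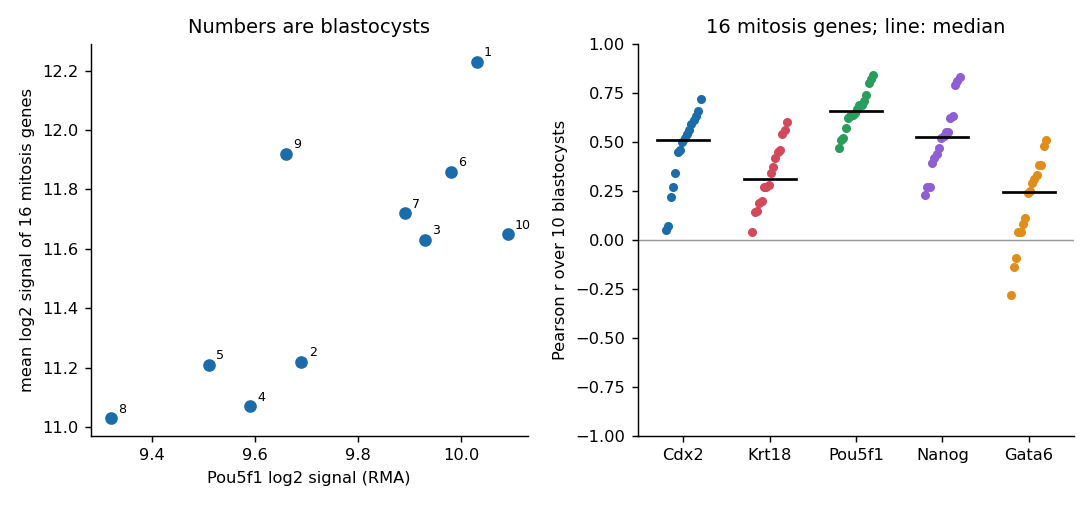
Left, mean log2 signal of the 16 mitosis genes (vertical axis) against the log2 signal of Pou5f1 (horizontal axis), 1 numbered point per intact blastocyst. Right, Pearson's r over the 10 blastocysts of each mitosis gene (points) with each marker, with the median as a line. Blastocyst 8 has the lowest and blastocyst 1 the highest list mean, and the 16 points over Pou5f1 lie between 0.47 and 0.84.

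Single genes varied far more than the lineage markers. Of the kept genes 281 (1.55%) had an SD above 1 log2 unit. Among the 100 of largest SD 41 were X-linked, where 6.05% of all kept genes were, 33 were small RNA genes, and 36 were protein coding, where 65.3% of all kept genes were. Xist, the RNA that silences an X chromosome in female cells, had the largest SD of all. It read 16.46 to 17.16 in blastocysts 1, 3, 4, 5, 7, 8 and 9 and 4.98 to 5.12 in blastocysts 2, 6 and 10. The Y-linked Eif2s3y read 8.63 to 9.21 in blastocysts 2, 6 and 10 and 4.39 to 4.53 in the others, and Uty 8.16 to 9.15 and at most 4.77. Kdm5d and Usp9y, also on the Y, were highest in the same 3 blastocysts, at 6.13 to 6.56 and 5.14 to 7.45. The intact set thus held 7 blastocysts of the female and 3 of the male pattern. Tsix, the antisense partner of Xist, was lowest in blastocysts 6 and 10, at 6.48 and 6.71 against 7.43 to 8.86 in the others. Tsix overlaps Xist on the opposite strand, so its signal is uncertain.

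Baiap2l1, an actin-bundling protein of epithelial protrusions on chromosome 5 (chr5:144264525-144358112, GRCm38.p6), had 2 separate levels of its own. It read 12.33 to 12.83 in blastocysts 1, 3, 6, 9 and 10 and 7.46 to 8.23 in blastocysts 2, 4, 5, 7 and 8, with no value between. The high set held blastocysts of both the female (1, 3 and 9) and the male (6 and 10) pattern. A search over all kept genes for a step of at least 1.5 log2 units that covered at least 50% of the range, with 3 or more blastocysts on each side, was added after the values were seen. It found 7 genes with printable names, namely Xist, Eif2s3y, Uty, Baiap2l1, Elobl, Lgals4 and Pramel17, and 8 without. Elobl, an elongin B-like gene on chromosome 11, read 12.35 to 12.81 in 6 blastocysts and 7.49 to 8.53 in the other 4.

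In the twins, which played no part in that search, both sisters of all 10 pairs lay on the same side for Baiap2l1. In pairs 1, 3, 6 and 10 both were high, at 12.14 to 13.09, and in the other 6 pairs both were low, at 6.28 to 8.83. Sisters were also on the same side in 10 of 10 pairs for Xist and Eif2s3y, in 9 of 10 for Elobl, Uty and Lgals4 and in 7 of 10 for Pramel17. For Baiap2l1 the side was thus shared by sisters cultured in different media, while it differed between embryos.

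**Figure D4:**
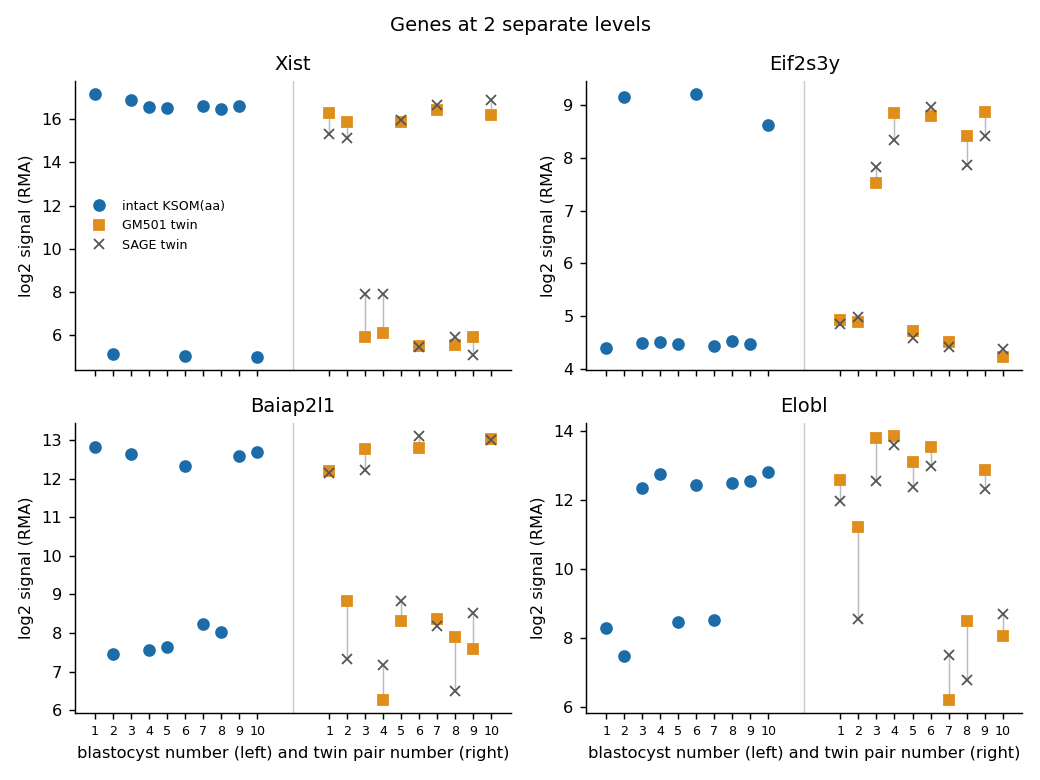
Log2 signal (vertical axes) of Xist, Eif2s3y, Baiap2l1 and Elobl in intact blastocysts 1 to 10 (circles, left of the line) and in twin pairs 1 to 10 (right; squares GM501, crosses SAGE, grey bars join sisters). Baiap2l1 lies at 12.33 to 12.83 in 5 intact blastocysts and at 7.46 to 8.23 in the other 5, and the sisters of all 10 pairs share a level.

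Other genes of large SD were graded. Txnip, an inhibitor of thioredoxin that responds to glucose, ran from 7.05 in blastocyst 6 to 14.96 in blastocyst 1, with a median of 13.82. Phlda2, an imprinted gene that restrains placental growth, ran from 5.62 to 11.25. It was above 10 in blastocysts 2, 4, 7, 8 and 9 and at most 8.21 in the others. Bst2, the antiviral membrane protein tetherin, ran from 6.70 to 12.10, and the histone gene H2bc1 from 8.58 to 14.25. Nr0b1, the X-linked pluripotency gene Dax1, ran from 4.79 to 9.33, Trh, which encodes thyrotropin-releasing hormone, from 4.88 to 8.99, and the pancreatic lipase relative Pnliprp2 from 4.65 to 11.21. Cwc22, a splicing factor gene with near-identical copies on chromosome 2, ran from 7.83 to 11.69 and is uncertain. Magea1, Magea2, Magea3, Magea5, Magea6 and Magea8, X-linked relatives whose probes may share signal, were all highest in blastocyst 2 (11.20 to 13.68) and lowest in blastocyst 6 (4.28 to 6.36).

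The most variable members of the lists not yet described were Aqp8 (an aquaporin, 6.41 to 8.68), Pfkp (a phosphofructokinase, 5.82 to 7.76), Hspa5 (the endoplasmic reticulum chaperone BiP, 11.32 to 12.93), Pmaip1 (the p53 target Noxa, 4.85 to 8.10), ND3 (14.66 to 15.98), Zp2 of the zona pellucida (4.37 to 6.32), Tdpoz4 of the 2-cell stage (4.56 to 7.01), Tmsb4x (5.27 to 6.48) and Cyp11a1 of steroid-forming cells (4.11 to 5.89). The brightest members were Cldn4, a claudin of tight junctions, at 15.93 ± 0.365, Gapdh at 15.45 ± 0.192, the p53 target Ccng1 at 14.38 ± 0.586, Khdc3 of the subcortical maternal complex at 13.91 ± 0.440 and the imprinted Igf2r at 9.26 ± 0.202 (SD, n = 10). Of 9 measured 2-cell stage genes 6 lay below the level kept, which 60% of all genes passed by definition.

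Set against the twins, some members of each lineage list were higher in intact blastocysts, and no member was called against twin pairs 7 to 10. The 10 intact arrays were compared with 10 means of the sisters of an embryo (limma, adjusted p under 0.05). Over all genes 2066 (11.4%) were higher and 2562 (14.2%) lower in intact blastocysts. Against pairs 7 to 10 alone, which hold 8 twins, 63 (0.348%) were higher and 69 (0.381%) lower. With fewer pair means this comparison has less power, so a gene not called there is not shown to be equal. Of the trophectoderm list 11 of 18 were higher and 0 lower, of the inner cell mass list 7 of 20 and 0, and of the primitive endoderm list 9 of 18 and 0. Their median differences were 0.46, 0.34 and 0.58 log2 units, against -0.11 over all genes. Uncalled members included Klf2 at -0.41 and Serpinh1 at -0.36 (adjusted p = 0.0515 and 0.065, limma). Against pairs 7 to 10 none of the 3 lists had a called member, and the medians were 0.30, 0.21 and 0.26, against 0.02.

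Cdx2 was higher in intact blastocysts by 0.59 ± 0.122 (SE), with 10 of 10 above the median of the twins, Krt18 by 0.43 ± 0.107 and Pou5f1 by 0.92 ± 0.247, also with 10 of 10 (limma adjusted p = 0.0062, 0.012 and 0.0173). Nanog was higher by 1.29 ± 0.354, with 9 of 10 (adjusted p = 0.0185, limma). Gata6 differed by 0.26 ± 0.145 (adjusted p = 0.163, limma). Against pairs 7 to 10 the same differences were 0.29, 0.14, 0.07, 0.73 and 0.07, none of them called (adjusted p = 0.258, 0.458, 0.918, 0.46 and 0.935, limma). Array medians reached 5.28 in twins, against at most 4.69 in intact blastocysts. The comparison was also run with arrays centred on their medians, and those values are not given here. How much of each difference the array medians make up is therefore not stated.

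Besides these markers, the called trophectoderm genes of smallest p were the factors Gata2 (higher by 0.65 ± 0.106), Tfap2c (0.74 ± 0.147) and Tead4 (0.88 ± 0.185), each with 10 of 10 intact blastocysts above the median of the twins (limma adjusted p = 0.0017, 0.0055 and 0.0065). In the inner cell mass list Zfp42 (1.40 ± 0.254), Sall4 (1.58 ± 0.364) and the reprogramming factor Klf4 (0.35 ± 0.092) were higher, with adjusted p of 0.0031, 0.0093 and 0.0161 (limma). In the primitive endoderm list the basement membrane gene Nid2 was higher by 1.29 ± 0.187, Lama1 by 2.63 ± 0.532, Cubn by 2.88 ± 0.616 and Lamc1 by 2.30 ± 0.559 (limma adjusted p = 0.000662, 0.0057, 0.007 and 0.0114). Nid2 read 6.29 to 8.21 in the intact blastocysts, 5.33 to 6.24 in GM501 twins and 5.52 to 6.56 in SAGE twins. It differed by 1.12 from pairs 7 to 10 (adjusted p = 0.0718, limma), where Cubn differed by 2.30 ± 0.932, Lama1 by 1.04 and Lamc1 by 0.48 (adjusted p = 0.292, 0.437 and 0.769).

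**Figure D5:**
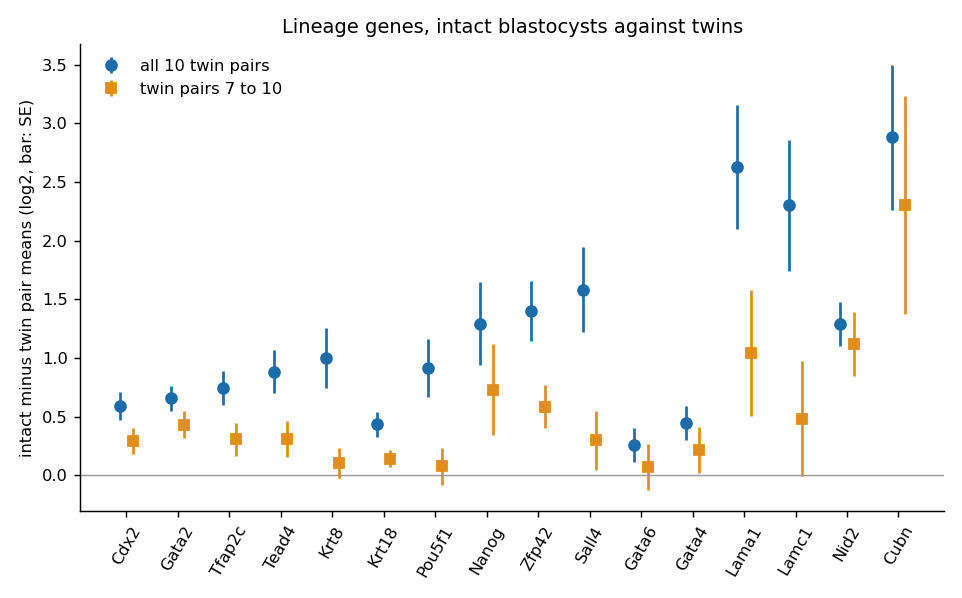
Difference in log2 signal between intact blastocysts and twin pair means (vertical axis, bars ± SE) for 16 lineage genes (horizontal axis), against all 10 pairs (circles) and against pairs 7 to 10 (squares). Lama1, Lamc1 and Cubn differ by 2.30 to 2.88 from all pairs, and the difference of Cdx2 is 0.59 from all pairs and 0.29 from pairs 7 to 10.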

How the data were processed

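Per the labels' protocols, total RNA of each blastocyst was amplified with a GeneChip WT Pico kit. The authors deposited RMA values on the log2 scale from Affymetrix Expression Console on mm10, per the submitters' processing notes; versions, and the base of the logarithm, are not given in the sources used here, and base 2 was read from the range of the values. RMA normalizes across arrays, so a level is relative within a cluster. Precision is limited by how many arrays there are.

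Of 65956 clusters 32750 had a listed gene and 30604 of these a single symbol (827 updated through the gene ID, 29837 genes matched to GRCm38.p6); 2146 with several symbols were not used. The brightest cluster stood for a gene, also where its ID names another chromosome than the gene's, and the upper 60% of genes by mean were kept. Fits used limma 3.58.1 in R 4.3.3 (lmFit, eBayes, two-sided, Benjamini-Hochberg over all kept genes), and correlations used permutation tests in Python 3.11.15, exact below 10 samples. The fits were tested on simulated data. Marker pairs, regressions on the markers and the comparison with twin pair means were the tests; ranks had none. Twin sisters were averaged so that no embryo counted as 2. The labels do not say how many matings the blastocysts came from, so p-values measure only the spread between these samples. Alternatives were array centring, filters, variance models, covariates, other twins and each blastocyst left out.

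Named were the 20 brightest genes, the 20 of largest SD, the 8 of smallest SD in the top 10% by mean, the 5 markers, the 3 brightest, 3 most variable and unkept genes per lineage list, the brightest and most variable gene of other lists, sex-linked genes, the 4 closest genes in each direction per marker and up to 4 called genes per lineage list against twins. The members of called or strongly correlated pairs, the 2-level genes, Sox2, Fgf4 and the mitosis genes besides Mki67 and Aurkb were chosen for naming once their values were known. The blastocysts and gene lists were chosen with earlier results of these data known. Small RNAs, pseudogenes and predicted genes were only counted.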

Additional observations from a re-analysis of the deposited data

Results flagged for a closer look

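Of 94 named genes 6 had 1 intact blastocyst apart from the other 9, with a gap to its nearest neighbour, as a share of the whole range, above Dixon's critical value for 10 samples, which chance gives in about 1 in 20 groups. The mitochondrial COX1 read 18.75 in blastocyst 6, against 18.56 in the next (gap 0.5 of the range). The value listed for Rpl35, on a cluster of another chromosome, read 17.85 in blastocyst 5, against 17.74 (0.55), and Tomm7 17.80 in blastocyst 3, against 17.72 (0.5). Magea2 read 12.39 in blastocyst 2, against 8.75 (0.581). The naive pluripotency factor Tfcp2l1 was lowest in blastocyst 5, at 12.47 against 13.27 (0.5). The tight junction gene Cldn4 was lowest in blastocyst 6, at 15.01 against 15.81 (0.597). In COX1, Rpl35 and Tomm7 the whole range was under 0.4 log2 units.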

How the results depend on the processing

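Marker pairs near 0 changed sign. Krt18 with Pou5f1 (r = 0.057) was -0.248 with centred arrays, -0.211 given the first component, -0.005 without the 2 farthest blastocysts and -0.101 to 0.322 with 1 blastocyst left out (-0.085, -0.026, -0.101 and -0.028 without 1, 3, 4 and 5). Krt18 with Gata6 (-0.137) was 0.113 without the 2 farthest, 0.132 as rho and -0.300 to 0.019 with 1 left out. Pou5f1 with Gata6 (0.044) was -0.056 centred, -0.055 without the 2 farthest and -0.095 to 0.503 with 1 left out (-0.095, -0.009 and -0.029 without 1, 7 and 10). Nanog with Gata6 (-0.173) was 0.077, 0.061 as rho and -0.449 to 0.339, positive without blastocyst 6. Pou5f1 with Nanog (0.431) was -0.034 given the first component, 0.767 without the 2 farthest and 0.303 to 0.664 with 1 left out. Cdx2 with Pou5f1 ran from 0.421 to 0.862. Called genes in the marker regressions rose from 0 to 1 for Pou5f1 with the first component (limma adjusted p = 0.0218, a predicted gene), for Gata6 centred and with robust variances (Trf), and for Cdx2 from 0 to 1 with 1 blastocyst left out (without blastocyst 7, a predicted gene). Lineage pairs called fell from 5 to 1 by rho and to 1 without blastocyst 1, both chosen after seeing the data. The 20 genes of largest SD shared 9 with those by median absolute deviation, and 18 to 20 with 1 blastocyst left out.

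Against twins, 9946 of all 30142 genes were lower without a filter, a larger set than in the other settings. Of the 18091 kept genes 2066 were higher and 2562 lower in the main fit, and array weights gave 3748 higher and 7051 lower. GM501 twins alone gave 1261 and 1232, SAGE twins alone 1356 lower, and pairs 7 to 10 alone 63 and 69. With 1 intact blastocyst left out 1619 to 1910 were higher and 1583 to 2105 lower (1583 without blastocyst 2 and 1647 without blastocyst 9). With the shared number as a replicate block 1751 were higher and 1579 lower; intact blastocysts and twins share only a number (r of their deviations -0.201 to 0.136). The block changed no call of the 5 markers. With GM501 twins alone Pou5f1 (0.687) and Nanog (1.042) missed the threshold (limma adjusted p = 0.0998 and 0.138), and with array weights Gata6 passed it (0.352, adjusted p = 0.022). The cause of these changes was not tested. With 10 blastocysts a correlation must be strong to pass, and genes below the level kept have no usable order.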

Other observations

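Counts of genes called against the twin pair means in other lists are read beside the 11.4% of all genes that were higher and the 14.2% that were lower in intact blastocysts (limma, adjusted p under 0.05). Of 13 kept glycolysis genes 10 were higher and 0 lower, with a median difference of 0.79 log2 units against -0.11 over all genes. Of 17 genes of cavitation and junctions, which build the fluid-tight epithelium, 10 were higher and 0 lower, with a median of 0.60. Of 11 heat shock and folding genes 5 were higher and 0 lower, and of 14 genes of translation and the cytoskeleton 5 were higher and 1 lower. Shares nearer to those of all genes were found for mitosis (3 of 16 higher, 0 lower), p53 targets (3 of 13 and 0), FGF, Nodal and BMP signals (2 of 13 and 0) and maternal transcripts (1 of 14 higher, 3 lower). Against twin pairs 7 to 10 the glycolysis list had 1 called gene and a median of 0.08, and the cavitation list 0 and 0.04, against 0.02 over all genes. The maternal list had 1 gene called higher there, and the mitochondrial list 1 called lower. That maternal gene was Khdc3, higher by 1.70 ± 0.198 (SE) against all pairs and by 1.26 against pairs 7 to 10 (limma adjusted p = 0.000184 and 0.0206). Array medians of the twins reached 5.28, against at most 4.69 in intact blastocysts, and their part in these differences is not stated here.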
